A study of Mus musculus with 9 samples.

Results

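Dbp, Tef and Hlf are the PAR bZIP transcription factors of the circadian clock's output, and Nfil3 (also called E4bp4) is the repressor that binds the same DNA element. Their transcripts were read in the lateral nasal gland of the mouse, which secretes odorant-binding proteins into the nose, on Affymetrix arrays. These are 4 of the 12393 genes with a probe set of their own. All probe sets whose single annotated symbol was one of the 4 were taken: 2 for Dbp, 3 for Tef, 2 for Hlf and 1 for Nfil3, 8 of the 22626 analysed. Probe sets with a signal over the median of the array on 2 or more arrays entered the fit, which kept 7 of the 8. The genes were chosen by measured values, after Dbp had been found lower in null glands than in both strains and Tef had been noted beside it, so the values of the null glands below describe them and carry no p-value.

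The study compared glands of male mice aged 2 to 3 months in 3 groups, with glands of 10 mice pooled for each array. Cyp2g1-null mice lack a cytochrome P450 of the nasal mucosa and are on a mixed 129/Sv and C57BL/6 background (3 arrays, 30 mice). Wild-type B6 mice, which are C57BL/6, gave 4 arrays (40 mice), and wild-type 129/Sv mice gave 2 arrays (20 mice). Each pool counted as 1 replicate, and precision is limited by how few arrays there are. The hour of dissection and the light schedule are not given in the sources used here, and their part in any difference was not tested.

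PAR bZIP factors (rich in proline and acidic amino acids, with a basic leucine zipper) activate genes through an element called the D-box. The clock's activators CLOCK and BMAL1 drive Dbp through E-boxes, so Dbp, Tef and the period genes share a phase in organs such as the liver, whereas Nfil3 is repressed by the nuclear receptors REV-ERB and peaks at about the opposite phase. In the liver and kidney, PAR bZIP factors control enzymes and regulators of detoxification, among them cytochromes P450, and the nasal glands also hold a large supply of these enzymes.

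The bases ahead of the start sites are shown because these elements are what is known to set the factors' phase. The windows are the 250 bases before annotated transcript starts in RefSeq's GRCm38.p6 mouse assembly, 5′ to 3′ on the gene's strand, and the windows are those that RefSeq's promoter table lists, 2 for Tef. The windows of Dbp and Nfil3 lie partly or wholly inside the annotated gene, so these genes have a further start whose window is not shown. Capitals mark a match, on either strand, to CACGTG (E-box), CACGTT (a weaker E-box), TTATGTAA or TTACGTAA (D-boxes), TAGGTCA (core of the element bound by ROR and REV-ERB) or TGACGTCA (cAMP response element).
Dbp, chr7:45704997-45705246, plus strand: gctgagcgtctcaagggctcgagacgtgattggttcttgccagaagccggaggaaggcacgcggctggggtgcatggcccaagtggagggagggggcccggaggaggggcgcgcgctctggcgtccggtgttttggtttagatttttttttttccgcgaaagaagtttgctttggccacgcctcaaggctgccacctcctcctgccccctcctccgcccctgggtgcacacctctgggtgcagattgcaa
Tef start 1, chr15:81802423-81802672, plus strand: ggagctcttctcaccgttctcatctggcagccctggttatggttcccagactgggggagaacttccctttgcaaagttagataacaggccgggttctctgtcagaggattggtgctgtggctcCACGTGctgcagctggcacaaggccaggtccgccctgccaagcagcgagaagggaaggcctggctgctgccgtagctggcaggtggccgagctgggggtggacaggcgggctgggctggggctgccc
Tef start 2, chr15:81811164-81811413, plus strand: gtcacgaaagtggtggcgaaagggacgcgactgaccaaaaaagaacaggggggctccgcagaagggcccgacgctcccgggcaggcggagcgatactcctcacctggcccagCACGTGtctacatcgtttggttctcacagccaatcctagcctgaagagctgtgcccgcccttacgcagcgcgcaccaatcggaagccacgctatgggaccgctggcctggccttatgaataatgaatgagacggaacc
Hlf, chr11:90390918-90391167, minus strand: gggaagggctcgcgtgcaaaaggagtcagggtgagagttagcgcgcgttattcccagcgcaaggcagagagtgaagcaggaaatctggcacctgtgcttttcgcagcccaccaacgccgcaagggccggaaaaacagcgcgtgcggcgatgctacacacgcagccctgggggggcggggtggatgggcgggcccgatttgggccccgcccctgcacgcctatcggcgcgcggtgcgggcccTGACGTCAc
Nfil3, chr13:52981040-52981289, minus strand: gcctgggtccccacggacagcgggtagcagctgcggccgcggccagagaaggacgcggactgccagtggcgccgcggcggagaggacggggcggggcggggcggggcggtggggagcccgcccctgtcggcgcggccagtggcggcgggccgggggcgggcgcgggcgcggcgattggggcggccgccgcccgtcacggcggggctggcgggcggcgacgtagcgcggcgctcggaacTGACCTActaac

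Both Tef windows held an E-box, 127 to 122 bases ahead of start 1 and 138 to 133 bases ahead of start 2, and 6.02% of all 32851 promoter windows of this length held one. The Hlf window held a cAMP response element 9 to 2 bases ahead of its start, found in 1.55% of windows. The Nfil3 window held the core of the ROR element on the opposite strand, 12 to 6 bases ahead of its start, found in 2.23% of windows. The Dbp window held none of these letters, which says nothing of sites elsewhere in the gene. The other motifs were in 3.85% (CACGTT), 0.819% (TTATGTAA) and 0.113% (TTACGTAA) of windows, and in none of the 5 shown. All 5 were rich in G and C, from 60.4% to 81.6%, against a median of 52.4% over all windows. The letters are of the C57BL/6J reference; those of 129/Sv were not analysed here.

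The deposited signals are MAS5 intensities that the authors scaled, and every array had a trimmed mean signal between 1499.44 and 1499.86 and a median between 522.7 and 552.75. The secretory transcript Obp1a, an odorant-binding protein of nasal glands, averaged 128752 ± 14796 in null glands, 143871 ± 7585 in B6 and 129522 ± 12913 in 129/Sv (SD, n = 3, 4 and 2), near the top of each array. Other gland transcripts did differ between the groups and are given with the marker lists at the end. Cyp2g1, the targeted gene, had signals of 55.7, 141 and 201 in null glands, against 5917, 748, 2007 and 2799 in B6 and 207.5 and 981 in 129/Sv. It was lower in the null glands than in B6 (log2 fold change -4.07, limma adjusted p = 0.00268), and did not pass against 129/Sv (-1.81, limma adjusted p = 0.325). Null array 2 stood apart in immediate early genes, which respond within minutes to handling: Fos had a signal of 8513 there, against 1123 and 1037 on the other null arrays and 418 to 1229 on the wild-type arrays. Earlier results had set B6 arrays 1 and 2 apart from B6 arrays 3 and 4, and values without them are given where they change a result.

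Dbp, the founding member of the family, was the factor with the largest difference. Its brighter probe set, 1438211_s_at, had signals of 2007, 1448 and 1378 in null glands, against 11595, 3412, 3436.5 and 11105 in B6 and 14034.5 and 18836 in 129/Sv. The null arrays were all below the wild-type arrays, B6 arrays 2 and 3 were the lowest of the wild types, and every B6 array lay below both 129/Sv arrays. The means were 1611 ± 345 in null glands, 7387 ± 4580.4 in B6 and 16435 ± 3395 in 129/Sv (SD, n = 3, 4 and 2). On the scale of log2(signal + 16), the null glands were lower by -1.96 ± 0.381 (SE) than B6, which is 3.9-fold, and by -3.34 ± 0.455 than 129/Sv, which is 10.1-fold. In a pool of whole glands, fewer cells of a type and less RNA per cell cannot be told apart.

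The second Dbp probe set, 1418174_at, gave the same order. Its signals were 568, 537.5 and 603 in null glands, against 3123, 1750.5, 1102 and 3743 in B6 and 4362 and 6508 in 129/Sv. No null array reached the lowest wild-type array, and the SD over the null arrays, 32.8, was small beside that of B6, 1215. The log2 differences were -1.91 ± 0.317 (SE) from B6 and -3.19 ± 0.379 from 129/Sv, 3.76-fold and 9.14-fold lower. Over the 6 wild-type arrays the log2 signals of both Dbp probe sets had a Pearson r of 0.959.

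Tef, the thyrotroph embryonic factor, lay in between. Probe set 1424175_at had signals of 4437.5, 3817 and 4219.7 in null glands, against 6414, 4353, 5139 and 7365 in B6 and 7429.6 and 11205 in 129/Sv. The null arrays overlapped B6 at array 2 alone and lay below both 129/Sv arrays. The log2 differences of the null glands were -0.46 ± 0.172 (SE) from B6 and -1.13 ± 0.205 from 129/Sv, the second being 2.19-fold.

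The other Tef probe sets were dimmer and overlapped more with B6. At 1450184_s_at the signals were 390.3, 551 and 661 in null glands, against 1129, 422, 709 and 1284 in B6 and 1368 and 1937 in 129/Sv, with log2 differences of -0.62 ± 0.323 (SE) from B6 and -1.61 ± 0.387 from 129/Sv. At 1438033_at they were 353, 433 and 591 in null glands, against 448, 443, 423 and 629.9 in B6 and 889 and 959 in 129/Sv, with -0.09 ± 0.249 from B6 and -1.01 ± 0.298 from 129/Sv. All 3 Tef probe sets had every null array below both 129/Sv arrays, and at none of them were the null arrays clear of B6. They measure 1 gene, and the share of all probe sets with null arrays below 129/Sv was not counted.

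Hlf, the hepatic leukemia factor, was near the array medians. Probe set 1434736_at exceeded the median on 5 of 9 arrays, all of them wild type. It thus entered the fit through the groups in which it was high. Its signals were 298, 339.6 and 453 in null glands, against 662, 466, 670.0 and 704 in B6 and 632 and 690.5 in 129/Sv. Every null array was below every wild-type array, and B6 and 129/Sv overlapped. The null glands differed by a log2 change of -0.76 ± 0.249 (SE) from B6 and -0.85 ± 0.297 from 129/Sv. Probe set 1434735_at exceeded the median on 1 array and was not tested. Its signals of 548, 271 and 74.4 in null glands spanned those of 513, 352, 306 and 417 in B6 and 394.5 and 368 in 129/Sv, and its log2 signal had an r of 0.144 with the other Hlf probe set over 9 arrays.

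Nfil3, the repressor of the set, ran the other way. Probe set 1418932_at had signals of 2347, 2879.7 and 2026 in null glands, against 1707, 2906, 3161 and 1459 in B6 and 694 and 911 in 129/Sv. The null arrays lay within the B6 range and above both 129/Sv arrays, and the highest B6 arrays were 2 and 3, where Dbp was lowest. The log2 difference of the null glands was 0.13 ± 0.241 (SE) from B6 and 1.57 ± 0.289 from 129/Sv, which is 2.97-fold.

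**Figure D1:**
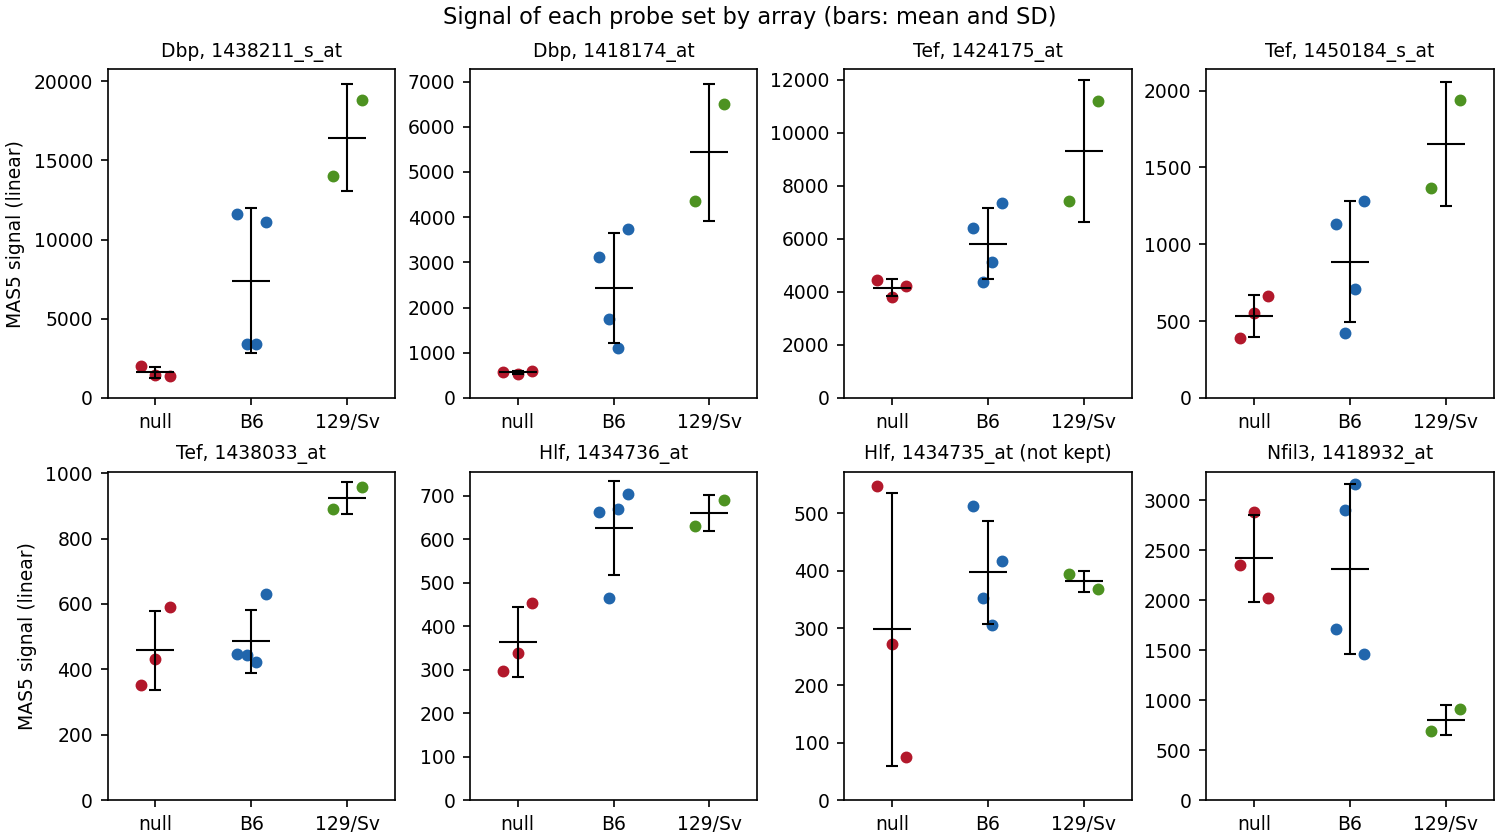
Each panel plots the signal of a probe set (linear MAS5 units, axis from 0) on every array of the Cyp2g1-null, B6 and 129/Sv groups, with the group mean and SD as bars. Both Dbp probe sets are lowest in the null glands and highest in 129/Sv, with B6 split between 3412 and 11595 at the brighter one, while Nfil3 is lowest in 129/Sv (694 and 911).

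Over the 7 kept probe sets, 2 were called lower in null glands than in B6 at an adjusted p under 0.05, both of them Dbp, where 1.07% of the 12575 probe sets tested were called lower and 2.18% in either direction. Against 129/Sv, 4 were called lower (both Dbp and 2 of Tef), where 0.628% of all were, and Nfil3 was called higher, where 1.41% were. Against the unweighted mean of both strains, 3 were called lower (both Dbp and Tef 1424175_at), where 0.469% were called lower and 1.22% in either direction. Both Dbp probe sets and Hlf 1434736_at had every null array below every wild-type array, as did 1.96% of the 12575 probe sets tested. Hlf 1434736_at had entered the fit through wild-type arrays alone. These contrasts chose the genes and share the null arrays, so the counts are a description.

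The strains themselves differed at Nfil3. B6 was above 129/Sv by a log2 change of 1.44 ± 0.274 (SE), or 2.72-fold, in all 4 B6 arrays (limma adjusted p = 0.00586). It was the only 1 of the 7 called between the strains, where 5.19% of all probe sets were called in either direction and 2.92% of all were called higher in B6. The call was lost without 129/Sv array 1 (limma adjusted p = 0.098). This contrast did not choose the genes, but its arrays also entered the contrasts that did.

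Dbp and Tef were below 129/Sv in every B6 array at each of their 5 probe sets, and none passed. The share of all probe sets with this order was not counted, so the order is a description. For Dbp the log2 differences of B6 from 129/Sv were -1.38 ± 0.432 (SE, limma adjusted p = 0.09) at 1438211_s_at and -1.28 ± 0.36 (adjusted p = 0.057) at 1418174_at. For Tef they were -0.68 (limma adjusted p = 0.0632) at 1424175_at, -0.99 (0.167) at 1450184_s_at and -0.92 (0.0821) at 1438033_at. Without B6 array 1 or without B6 array 4, the bright ones for Dbp, both Dbp probe sets and Tef 1424175_at passed, and the Tef probe set also passed without 129/Sv array 1. Hlf 1434736_at differed by -0.09 ± 0.282 (SE, limma adjusted p = 0.912).

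The factors were then set against each other array by array, with the probe set of highest mean log2 signal for each gene and 6 pairs in all. Permutation over the wild-type arrays moved arrays between the strains, so its p-values also take in strain differences shared by a pair. These arrays also entered the contrasts that chose the genes. Dbp and Tef moved together over the 6 wild-type arrays (Pearson r = 0.914, exact permutation p = 0.00694, adjusted over the 6 pairs 0.0417; Spearman rho = 0.943, exact p = 0.0167, adjusted 0.1). The r was 0.916 without the 2 arrays farthest from the median of Dbp, B6 2 and B6 3, and 0.92 over the 4 B6 arrays alone, so strain was held constant there. The adjusted p was 0.0583 when the arrays were set to equal medians. With any 1 array left out, r was 0.86 to 0.946. With so few arrays an adjusted exact permutation p, here 0.05 to 0.25, can hardly pass, so these values say nothing on whether the call holds. With group means removed over 9 arrays, r was 0.828 (exact permutation p = 0.0521, adjusted 0.313), and 0.757 without B6 arrays 1 and 4.

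Nfil3 ran opposite to both over the wild-type arrays, without passing adjustment. For Dbp and Nfil3 the Pearson r was -0.91 (exact permutation p = 0.0222, adjusted 0.0667; Spearman rho -0.829, exact p = 0.0583, adjusted 0.117), -0.677 without B6 2 and B6 3, and -0.977 within B6. For Tef and Nfil3 r was -0.827 (exact permutation p = 0.0486, adjusted 0.0972; rho -0.886, exact p = 0.0333, adjusted 0.1), -0.882 without 129/Sv 2 and B6 2, and -0.923 within B6. B6 arrays 2 and 3 thus had low Dbp and Tef with high Nfil3, and B6 arrays 1 and 4 had the reverse, a split that crosses the earlier one of arrays 1 and 2 from 3 and 4. With group means removed, r was -0.801 for Dbp and Nfil3 (exact permutation p = 0.264, adjusted 0.396) and -0.566 for Tef and Nfil3 (exact p = 0.212, adjusted 0.396).

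No relation of Hlf passed. Over the wild-type arrays its Pearson r was 0.6 with Dbp (exact permutation p = 0.183, adjusted 0.23; rho 0.314, exact p = 0.564, adjusted 0.677), 0.67 with Tef (exact p = 0.192, adjusted 0.23; rho 0.486, exact p = 0.356, adjusted 0.533) and -0.426 with Nfil3 (exact p = 0.501, adjusted 0.501; rho -0.143, exact p = 0.803, adjusted 0.803). Without B6 2 and B6 3 the r with Dbp was -0.00681. With 6 arrays, the smallest p that the 720 orders can give is 0.00139.

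**Figure D2:**
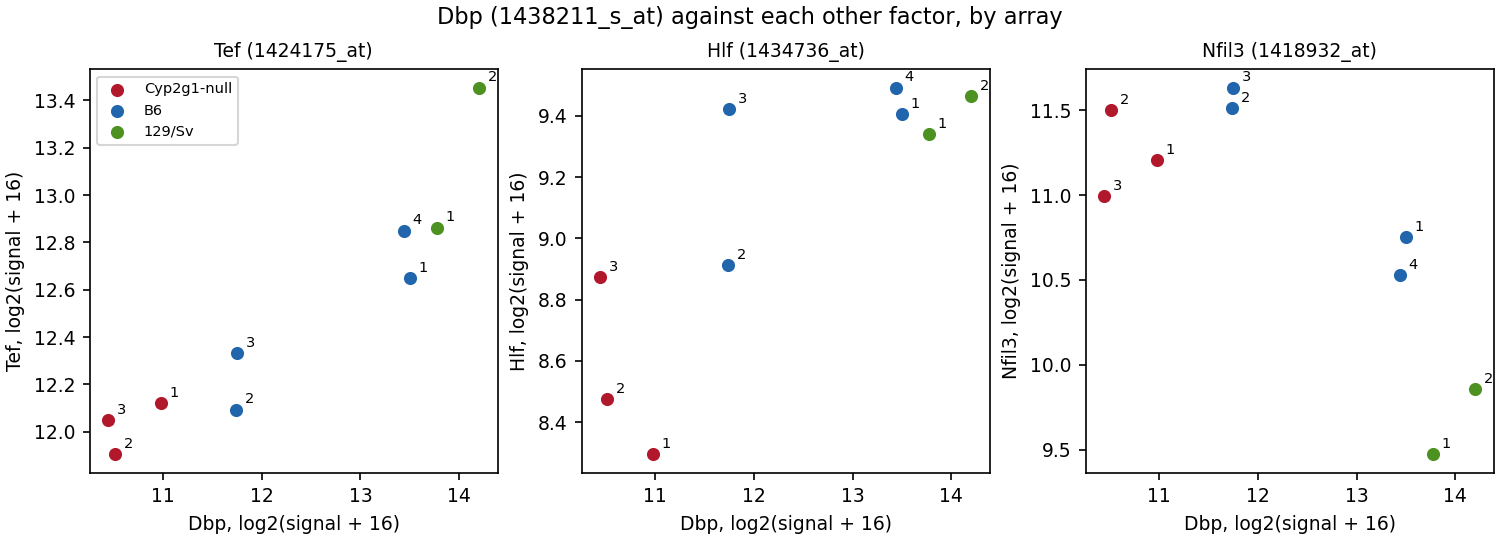
Each point is an array, labelled by its replicate number and coloured by group, with log2(signal + 16) of Dbp 1438211_s_at on the horizontal axis and that of Tef, Hlf or Nfil3 on the vertical axis. The null arrays lie at the low end of Dbp in all panels. Among wild-type arrays Tef rises with Dbp (r = 0.914) and Nfil3 falls (r = -0.91).

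The pathway around the factors was described through 6 lists with 45 genes, of which 35 had a probe set of their own and 30 were kept, with 55 probe sets. Cyp2a4 and Cyp2a5 are among the 45. Their shared probe set, called lower in null glands than in either strain, carries both symbols and is left out of these counts. Against B6, 0 of the 30 genes were called by limma with Benjamini-Hochberg adjustment, and 9 probe sets had an unadjusted p under 0.05. Against 129/Sv, 1 gene rose and 3 fell, with 9.09% of the 55 probe sets called, against 2.04% of all. Between B6 and 129/Sv, 1 gene was higher in B6 and 2 were lower, with 7.27% called, against 5.19% of all. Against the mean of both strains 2 fell, with 3.64% called, against 1.22% of all. The lists were chosen with earlier results of these data known, that of Nr1d2 among them, so the counts and shares are a description. Leaving out arrays moved these counts: against 129/Sv it was 1 gene without null array 1, 2 or 3 and 2 without 129/Sv array 2, and between the strains it was 1 without either 129/Sv array or without B6 array 2 or 3. Against the mean it was 3 without 129/Sv array 1, and 1 without 129/Sv array 2, B6 array 3 or any null array. Against B6 it was 1 without either 129/Sv array and 2 without B6 array 2. The median log2 change of the 55 was -0.03 against B6 and -0.08 against 129/Sv, where all probe sets had medians of 0.02 and 0.00.

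Among the repressors and nuclear receptors driven through E-boxes, 7 of 9 listed genes were kept, and 1 fell against 129/Sv. Nr1d2, which encodes REV-ERB beta and had been noted in earlier results of these data, had signals of 6863, 6338 and 5869.6 at 1416958_at in null glands, against 9005, 7039, 7641 and 9592.5 in B6 and 12469 and 13351 in 129/Sv. Every null array was below every wild-type array, and the B6 arrays with the lowest Dbp, 2 and 3, were again the lowest of B6. The log2 change was -1.02 against 129/Sv (limma adjusted p = 0.000622), -0.70 against the averaged strains (0.00418) and -0.38 against B6 (0.109). B6 was below 129/Sv by -0.64 (limma adjusted p = 0.00769). The second Nr1d2 probe set, 1416959_at, had -0.44 against B6 and -0.82 against 129/Sv (limma adjusted p = 0.404 and 0.187). Its B6 signals were 775, 867, 876 and 1258 on arrays 1 to 4, so array 1 was the lowest there.

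The other genes of that list did not pass against either strain. Bhlhe40, a repressor also called Dec1, had a log2 difference of -0.29 from B6 and -0.64 from 129/Sv (limma adjusted p = 0.383 and 0.087). Nr1d1, which encodes REV-ERB alpha, had -0.65 and -0.85 (0.316 and 0.307). Per2, a core repressor, had signals of 266, 108.5 and 192.5 at 1417602_at in null glands, against 303, 158, 119.5 and 554.5 in B6 and 397 and 1303.5 in 129/Sv. Its wide spread left a log2 difference of -1.93 from 129/Sv short of the threshold (SE 0.717, limma adjusted p = 0.255). It exceeded the array median on 2 arrays, 129/Sv 2 and B6 4, so it entered the fit through wild-type arrays in which it was high. A second Per2 probe set, 1417603_at, was too dim for the fit. Its means were 278 in null glands, 237 in B6 and 453 in 129/Sv. Per1 had 0.09 and 0.46 (0.856 and 0.36), and Cry2, the cryptochrome of the list, had 0.08 and 0.00. The list's median was -0.39 against B6 and -0.73 against 129/Sv.

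Among the activators and genes driven through ROR elements, 5 of 7 were kept and 1 rose. Npas2, a partner of BMAL1, had signals of 653, 651 and 682 in null glands, against 433, 611.5, 488 and 293 in B6 and 94.8 and 218 in 129/Sv. Every null array was above every wild-type array, and within B6 the lowest were arrays 1 and 4, where Dbp was highest. Npas2 exceeded the array median on 4 arrays, the 3 null arrays and B6 array 2. It thus entered the fit through the group in which it was high, and its calls are a description. It was higher by a log2 change of 2.07 against 129/Sv (limma adjusted p = 0.0193), by 0.57 against B6 (0.496), and B6 was above 129/Sv by 1.51 (0.0431). Arntl, which encodes BMAL1, had signals of 1004.5, 1539 and 1552 in null glands, against 1084, 1104, 971 and 493 in B6 and 934 and 345 in 129/Sv, with log2 differences of 0.61 and 1.21 that did not pass (limma adjusted p = 0.424 and 0.174). Clock 1418660_at had 0.28 and 0.33 (0.44 and 0.544), and Rora 1424034_at, a nuclear receptor that activates at these elements, had 0.16 and -0.23 (0.727 and 0.775). The list's median was 0.16 against B6 and 0.14 against 129/Sv.

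**Figure D3:**
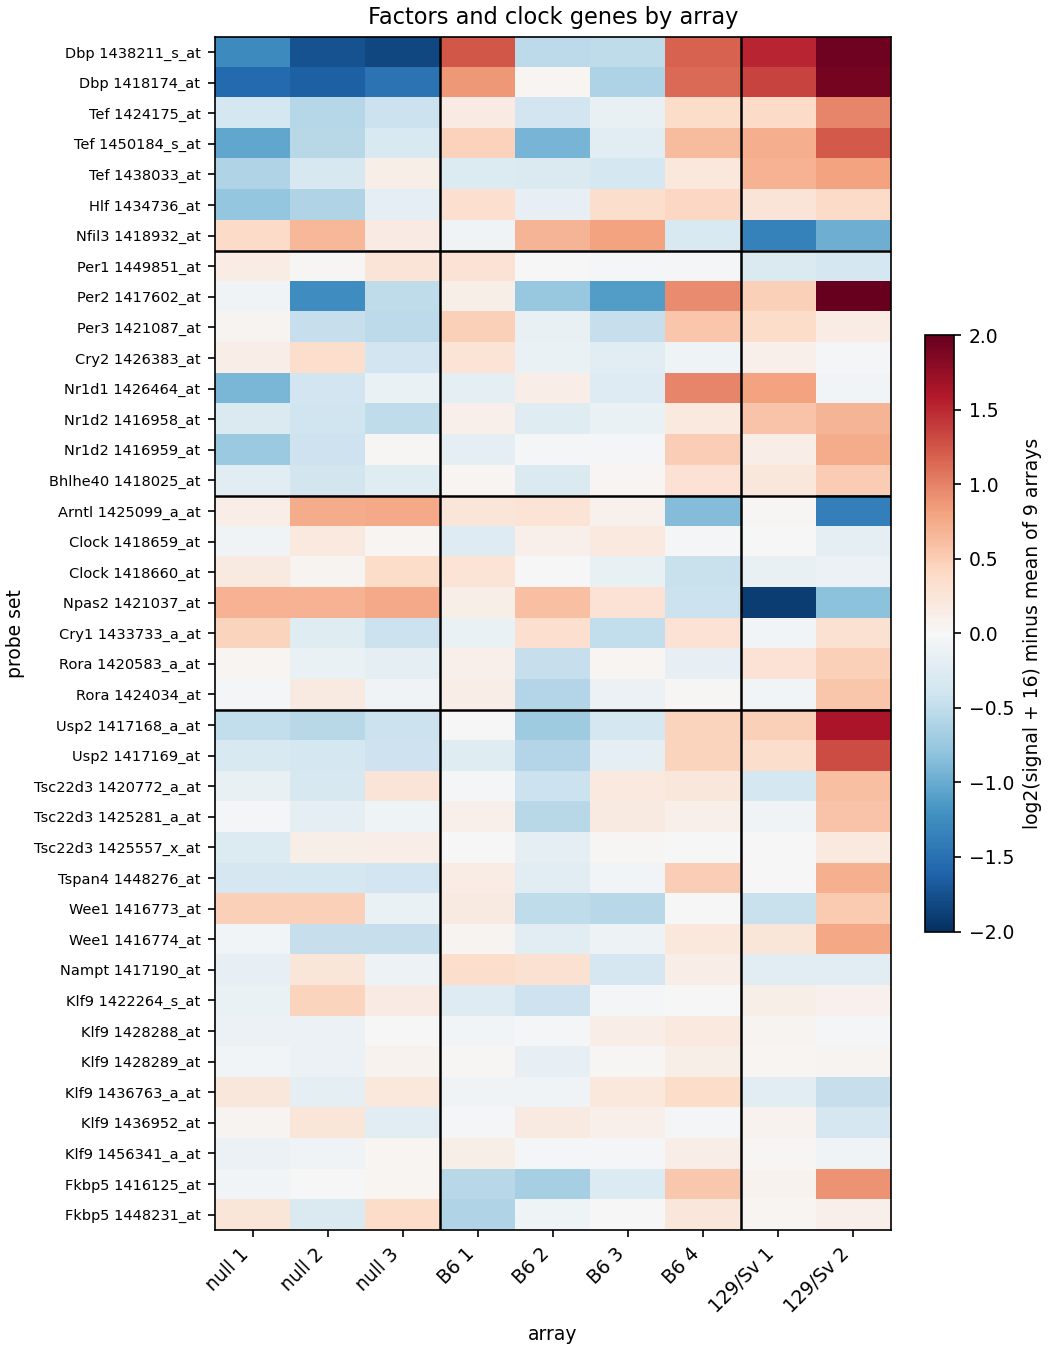
Rows are probe sets of the factors (top block), the E-box group, the ROR-element group and rhythmic outputs, columns are the 9 arrays with null glands at the left, and colour gives log2(signal + 16) minus the row's mean over 9 arrays. Dbp and Nr1d2 1416958_at are blue in null glands and red in 129/Sv, and Nfil3 and Npas2 are red in null glands and blue in 129/Sv. Colours end at 2 log2 units either way.

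Of 8 rhythmic output genes 7 were kept, and Usp2, a deubiquitinase with a strong daily rhythm in many organs, fell against 129/Sv. Its signals at 1417168_a_at were 1589.9, 1525 and 1659 in null glands, against 2242, 1369, 1771 and 3083 in B6 and 3143.5 and 6999.8 in 129/Sv. The null arrays lay within the B6 range, and 129/Sv array 2 was far above the other. The log2 change was -1.55 against 129/Sv (limma adjusted p = 0.0194), and B6 was below 129/Sv by -1.21 (0.03). Its second probe set, 1417169_at, had -1.18 against 129/Sv (limma adjusted p = 0.0443). Klf9, a glucocorticoid-induced factor and the brightest of the list, differed by -0.10 from B6 and -0.02 from 129/Sv at 1456341_a_at. The list's median was -0.05 against B6 and -0.09 against 129/Sv.

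Of the 10 listed genes reported elsewhere as targets of PAR bZIP factors, 3 were kept and 1 fell. The 10 include Cyp2a4 and Cyp2a5, whose shared probe set also fell but is left out of these counts and given below. Cyp2b10, a cytochrome P450 that metabolises drugs, had signals of 3098.5, 3074 and 3331 at 1451787_at in null glands, against 6764, 3518, 6174 and 6982 in B6 and 5849.8 and 10933.5 in 129/Sv. All null arrays lay below all wild-type arrays, with B6 array 2 closest. The log2 change was -1.33 against 129/Sv (limma adjusted p = 0.0198), -1.08 against the averaged strains (0.0279) and -0.84 against B6 (0.0791). Its other probe sets, of a type that can match several transcripts, had -0.82 and -0.60 against 129/Sv and did not pass (limma adjusted p = 0.0906 and 0.152). An effect of the targeted Cyp2g1 locus on Cyp2b10 was not told apart from one of Dbp, and neither was tested. Without B6 array 2, Cyp2b10 and Alas1 were called lower against B6, 2 genes in place of 0. Alas1, the first enzyme of haem synthesis, had -0.39 against B6 and -0.39 against 129/Sv at 1424126_at (limma adjusted p = 0.133 and 0.251). Its other probe set, 1455282_x_at, had -0.03 against B6 and 0.21 against 129/Sv (limma adjusted p = 0.973 and 0.86). The list's median was -0.32 against B6 and -0.50 against 129/Sv.

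Cyp2a4 and Cyp2a5, cytochromes P450 that are known targets of DBP in mouse liver, share a probe set that cannot tell them apart. Its signals were 2931, 2755 and 5249 in null glands, against 66851, 37581, 67827.5 and 90653 in B6 and 81184 and 100182 in 129/Sv. Within B6 it was lowest on array 2, and array 3, where Dbp was also low, was about level with array 1. The log2 change was -4.16 ± 0.255 (SE, limma adjusted p = 9.66e-07) against B6 and -4.69 ± 0.304 (5.25e-07) against 129/Sv. Both genes lie near Cyp2g1 on chromosome 7, and Dbp is on chromosome 7 as well. Which strain's chromosome 7 the null line carries was not analysed here.

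No gene of the clock kinases and ligases (4 of 6 kept) or of the C/EBP factors (4 of 5 kept), bZIP proteins of a related family, was called in any contrast, although 1 to 2 probe sets of each had an unadjusted p under 0.05 against B6. Fbxw11, a ubiquitin ligase subunit, differed by -0.14 from B6 at 1437468_x_at, and Csnk1d, a kinase that phosphorylates period proteins, by 0.04 at 1456727_a_at. Cebpb and Cebpg, the brightest C/EBP genes, differed by 0.27 at 1418901_at and -0.14 at 1425262_at. Cebpd had signals of 1259, 1253 and 1068 in null glands, against 714, 591, 1109 and 857 in B6 and 694 and 616 in 129/Sv, a log2 difference of 0.57 from B6 and 0.85 from 129/Sv (limma adjusted p = 0.197 and 0.112). The medians against B6 were 0.07 for the kinases and ligases and 0.16 for the C/EBP factors.

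**Figure D4:**
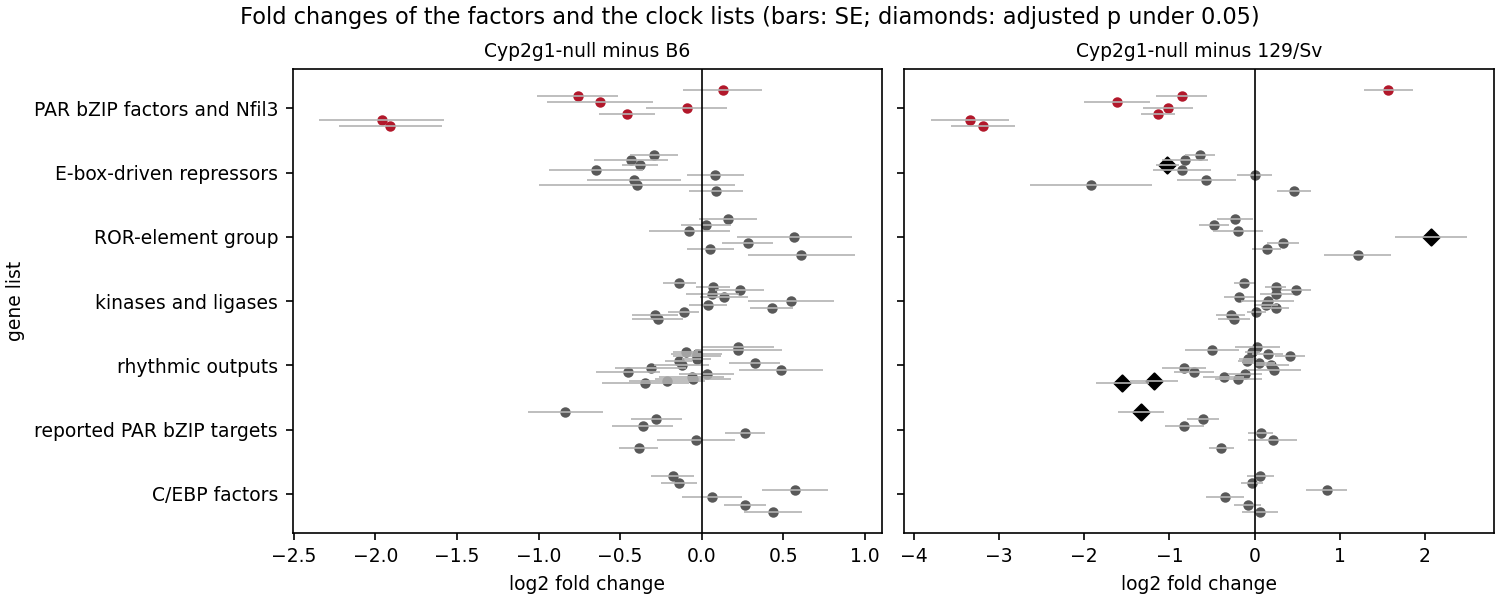
Points are log2 fold changes of the null glands against B6 (left) and against 129/Sv (right), a row of points per list, with the SE as bars. Red marks the factors, shown with no test, and black diamonds mark pathway probe sets with an adjusted p under 0.05. No diamond stands against B6, and 5 stand against 129/Sv, those of Nr1d2, Npas2, Usp2 (2) and Cyp2b10. Both panels share the null arrays.

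Likeness to Dbp 1438211_s_at was ranked over 11601 probe sets with a single symbol, as a description, since all points share the 9 arrays and the group differences. Nr1d2 1416958_at was the most alike over 9 arrays (r = 0.95), followed by Ephx1, a microsomal epoxide hydrolase (0.949), Glrx2, a mitochondrial glutaredoxin (0.947), Emc2, of the endoplasmic reticulum membrane complex (0.939), and Tef 1424175_at (0.935). The second Nr1d2 probe set, 1416959_at, ranked 283 with r = 0.695. Of the other factors, Tef 1450184_s_at came 25th with r = 0.877, Hlf 1434736_at 76th with 0.812 and Tef 1438033_at 313th with 0.682. At the opposite end stood Brap (-0.949), Tex10 (-0.931), Mau2 (-0.908), Ceacam1 (-0.908) and S100a10 (-0.906), and Nfil3 ranked 120 from that end (-0.791). Bhlhe40 ranked 11 among the most alike (r = 0.902), and Npas2 ranked 70 from the opposite end (-0.823). Among other clock genes, r was 0.822 for Per3, 0.801 for Per2 and 0.608 for Nr1d1. For Cry1 it was 0.331, for Cry2 0.147, for Per1 -0.565 and for Arntl -0.768.

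With group means removed, the order changed. The probe sets most alike were C030006K11Rik (r = 0.995), Ctdsp2 (0.979), Ankrd54 (0.966), Alas1 1455282_x_at (0.964) and Washc4 (0.961). Nr1d2 1416958_at ranked 9 with r = 0.935, Per3 ranked 40 with 0.882 and Tef 1424175_at ranked 113 with 0.828. Other probe sets of the same genes were less alike. Nr1d2 1416959_at ranked 4365 with 0.139, Tef 1450184_s_at 330 with 0.726 and Tef 1438033_at 3249 with 0.259. Of other clock genes, Per2 had an r of 0.798, Bhlhe40 0.68, Per1 0.421, Nr1d1 0.149 and Npas2 -0.415. The most opposite were Polrmt (-0.966), P3h4 (-0.951), Map3k3 (-0.95), Rrn3 (-0.944) and Snrnp40 (-0.941), and Nfil3 ranked 146 from that end. Dbp deviated most from its group mean in the 4 B6 arrays, so these weigh most in the ranks.

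Other transcripts moved with the null glands as well. Immediate early genes summed over 12 probe sets to 45597, 91066 and 44833 in null glands, against 29380 to 40474 in B6 and 32360 and 42838 in 129/Sv. Of the 9 kept genes of that list, 3 rose against B6 (Ccn1, Dusp1 and Jun) and 2 against 129/Sv (Btg2 and Jun), with 4 and 3 of the 12 probe sets called, where 2.18% and 2.04% of all were. All 12 had a positive change against B6, with a median of 0.89, and 11 had one against 129/Sv. Markers of ciliated epithelium summed over 6 probe sets to 17526 to 18751 in null glands, against 11453 to 13650.4 in B6 and 12459 and 14553 in 129/Sv, and 4 of 6 genes rose against B6 (Dnah5, Lrrc23, Rsph1 and Tppp3). Against 129/Sv 0 of the 6 were called by limma, 5 had an unadjusted p under 0.05, and all 6 had a positive change. Markers of olfactory neurons, 4 of 7 genes kept, summed to 1715 to 6642 in null glands, against 2176 to 10709 in B6 and 1207 and 2448 in 129/Sv. Markers of the gland itself, 5 of 7 genes kept, summed to 315380 to 381743 in null glands, against 259403 to 372179 in B6 and 179166 and 180934 in 129/Sv. Of these, 2 secretoglobins rose against 129/Sv. Scgb1b27 averaged 108234 in null glands, 76801 in B6 and 17042 in 129/Sv (log2 change 2.66 against 129/Sv, limma adjusted p = 4.27e-07), and Scgb2b27 averaged 88337 in null glands, 55035 in B6 and 21266 in 129/Sv (2.05, 0.00015). B6 exceeded 129/Sv at both (log2 difference 2.15 and 1.33, limma adjusted p = 1.67e-06 and 0.00211). Lcn3, a lipocalin, fell against B6 (log2 change -1.12, limma adjusted p = 0.00335). No marker had a signal of 0 on any array. The part of these transcripts in the differences of Dbp and the other factors was not tested.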

How the data were processed

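RNA of pooled lateral nasal glands was measured on 9 single-colour arrays. The deposited values are linear intensities. Per the submitters' processing notes the authors used MAS5, with a version not given in the sources used here. Equal means after trimming 2% at each end show that the arrays had been scaled. Without detection calls, how many signals exceed background is unknown. Of 22690 probe sets 64 controls were left out, and 20380 of the others had 1 symbol in the platform annotation, 691 several and 1555 none. Gene IDs of 20351 were found in RefSeq's table, which changed no symbol. There were 0 columns of other samples.

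Signals were converted to log2(signal + 16). Group means were fitted over all 9 arrays with limma 3.58.1 in R 4.3.3 (lmFit, eBayes with trend) on the 12575 probe sets kept, tested on simulated data first. Adjusted p-values are Benjamini-Hochberg over all of them, two-sided, with a threshold of 0.05. Fold changes understate those of dim probe sets. Each probe set was read separately, and no probe set's level was set against another's. Relations between factors were tested by exact two-sided permutation, across both strains for the wild-type arrays and within groups where group means were removed. Members, lists and motifs were chosen with earlier results of these data known. Named were all probe sets of the factors, list genes that passed in any contrast and the 2 brightest of each list, the 5 probe sets most and least like Dbp, Cyp2g1, the probe set of Cyp2a4 and Cyp2a5, handling genes and markers that moved with a result. Bhlhe40, Nr1d1, Per1, Per2, Per3, Cry1, Arntl and Cebpd were named outside this rule, after their values were seen. Alternatives tried were pseudocounts of 1 and 64, array medians set equal, quantile normalization, a filter at the 75th percentile or none, eBayes without trend, the replicate number as a block, each array left out, and B6 arrays 1 and 2 left out. Replicate numbers did not pair the arrays: deviations of same-numbered arrays correlated between -0.075 and 0.0963.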

Additional observations from a re-analysis of the deposited data

Results flagged for a closer look

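Examined in the 4 B6 arrays were 65 probe sets: the 8 of the factors, the 55 of the pathway lists that were kept by the filter, that of Cyp2g1 and that of Cyp2a4 and Cyp2a5. List probe sets too dim for the filter are not counted. Of the 65, 4 had an array whose gap to its nearest neighbour, as a share of the group's range, was above Dixon's critical ratio for 4 samples. Chance gives about 1 in 20 groups. Tef 1438033_at had a ratio of 0.88, with B6 array 4 at 629.9 and the other arrays at 423 to 448. Per1 1449851_at had a ratio of 0.92, with B6 array 1 at 990.4 and the others at 781 to 797. Tsc22d3, a glucocorticoid-induced leucine zipper gene, had ratios of 0.867 at 1425281_a_at and 0.867 at 1425557_x_at, with B6 array 2 lowest at both (706 and 745).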

How the results depend on the processing

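Of the values that compare null glands with a strain over the factors' probe sets, 363 kept their direction under the alternatives and 6 reversed. Those of Dbp 1438211_s_at ran from -2.25 to -1.67 against B6, -3.56 to -3.13 against 129/Sv and -2.82 to -2.50 against the mean when each array was left out. The reversals were near 0: Nfil3 against B6 was -0.0649 with the replicate block and -0.0649 to 0.304 with arrays left out, and Tef 1438033_at against B6 was 0.0349 with the block and -0.284 to 0.0742 with arrays left out. Hlf 1434736_at in B6 minus 129/Sv ranged from -0.157 to 0.0381 with arrays left out and was 0.0551 without B6 arrays 1 and 2. In that contrast Dbp 1438211_s_at was -1.46 with the replicate block (limma adjusted p = 0.0363), where Dbp 1418174_at (0.0314) and Tef 1424175_at (0.0489) passed too, and -1.68 to -1.09 with arrays left out (0.0178 to 0.438). Clock genes called were 0 to 2 against B6, 1 to 4 against 129/Sv, 1 to 3 against the mean and 1 to 4 between strains with arrays left out. Without B6 arrays 1 and 2 they were 2 against B6, 6 against 129/Sv and 5 against the mean, without trend 2 against 129/Sv and 0 against the mean, and with the replicate block 1 against the mean. Probe sets called were 153 to 611 against B6, 127 to 326 against 129/Sv, 58 to 292 against the mean and 341 to 863 between strains with arrays left out. They were 154, 166 and 59 in the null contrasts without trend and 542, 410 and 386 without B6 arrays 1 and 2. Over wild-type arrays the r of Dbp and Tef was 0.915 with equal medians (adjusted exact permutation p = 0.0583), 0.916 without B6 arrays 1 and 2 (0.375, with fewer arrays) and 0.86 to 0.946 with arrays left out. Hlf and Nfil3 had 0.336 without B6 arrays 1 and 2 and -0.661 to 0.287 with arrays left out. With group means removed Dbp and Hlf had -0.0992 and -0.133 to 0.543. Apart from the fewer arrays, the causes were not tested. Dim probe sets, such as those of Hlf, are limited by signal near background.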
